A study of Mus musculus with 2 samples.

Results

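The genes described here are named for lying opposite another gene: each carries the symbol of a partner followed by "os", for opposite strand, as Oip5os1 is named for Oip5. They were taken from the gene table by name, where the partner was also listed and the gene reached 5 counts in either library. The names of 141 of 22383 genes end this way, 112 of these had their partner in the table, and 61 reached the minimum. These 61 share 60 partners, because Ptgs2os and Ptgs2os2 are both named for Ptgs2. The minimum rests on the counts compared below, so the choice of genes is not independent of them. Just inside it were 3 genes with 5 counts, Atad3aos with 0 in the empty vector library and 5 in that of the hairpin, and Arf4os and Cdiptos with 5 and 0. Just outside it were 6 genes with 4 as the higher count, of which Dhx58os, Dnm3os, Il1bos and Runx2os1 had 0 and 4, Smc2os 4 and 1, and Taco1os 3 and 4. In all, 51 named genes stayed below the minimum, 11 of them at 0 in both libraries.

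RNA was sequenced from iHFSC2, an immortalized mouse hair follicle stem cell line, in 1 library of cells infected with the empty lentiviral vector and 1 of cells infected with the shcircSmad5 lentivirus (the hairpin library), whose short hairpin is aimed at circSmad5, a circular RNA of the Smad5 gene. Where values are given as a pair, the empty vector library comes first. Both lines were selected with puromycin from day 4 and were stable at day 15. The comparison asks which RNAs differ in level when the hairpin is present. With 1 library per line there was no test. Effects of circSmad5 loss, of expressing any hairpin and of selecting lines or preparing RNA and libraries separately cannot be told apart. No control hairpin line was analysed here. In RNA from bulk cells, fewer cells that make an RNA and less of it per cell cannot be told apart either.

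Opposite-strand genes are transcribed from the DNA strand that their partner does not use. Many start beside the partner's own start and run away from it, out of a shared promoter that works in both directions, and others run into the partner's body or end. Many of their transcripts stay in the nucleus or are degraded there by the RNA exosome, and some are known to raise or lower the output of their partner. Oip5os1, also called Cyrano, is the best known of them: it carries a conserved site that pairs almost fully with the microRNA miR-7 and triggers the decay of that microRNA, through the ubiquitin ligase adaptor Zswim8.

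The sequences below show the Oip5os1 site and the short stretches of DNA from which paired genes start. The mature miR-7 sequences are from RefSeq (GRCm38.p6), with the seed, bases 2 to 8, in capitals. Both share the seed GGAAGAC.
mmu-miR-7a-5p: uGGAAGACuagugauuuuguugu
mmu-miR-7b-5p: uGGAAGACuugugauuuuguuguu
A search of the GENCODE M21 transcripts of Oip5os1 for the match to bases 2 to 8, in capitals, found 2 positions, both in exon 3 on the plus strand. The first, chr2:119602136-119602161, lies in the 8300-base transcript and not in the 1381-base one, and beyond a short unpaired stretch 13 further bases pair without a break with bases 11 to 23 of miR-7a.
Oip5os1 extended site: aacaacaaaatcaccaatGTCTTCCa
The second, chr2:119599946-119599971, lies in both transcripts and has no such run.
Oip5os1 seed-only site: tcaggttttttttttaatGTCTTCCa
The gene counts do not separate these transcripts, and microRNAs were not analysed here, so miR-7 itself has no value below.

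RefSeq (GRCm38.p6) gave promoter windows, 250 bases before to 50 after a start, for 36 of the 61 genes and 47 partners. In the windows of 4 pairs that start back to back, capitals mark the stretch between the start of the opposite-strand gene and that of its partner in GENCODE M21. These pairs are shown because the same few bases lie upstream of an RNA that differed between libraries and of one that differed less or the other way. The Brip1 window, chr11:86201144-86201443 on the minus strand, holds the start of Brip1os 177 bases away.
Brip1: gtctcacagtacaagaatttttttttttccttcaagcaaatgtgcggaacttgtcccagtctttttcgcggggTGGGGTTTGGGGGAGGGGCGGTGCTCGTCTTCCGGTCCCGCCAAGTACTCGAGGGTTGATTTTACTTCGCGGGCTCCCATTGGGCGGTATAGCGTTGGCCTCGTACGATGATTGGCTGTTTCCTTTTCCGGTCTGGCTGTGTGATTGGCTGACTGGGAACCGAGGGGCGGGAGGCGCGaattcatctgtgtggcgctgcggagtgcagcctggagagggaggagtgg
The Cep83os window is chr10:94688564-94688863 on the minus strand, with starts 78 bases apart.
Cep83os: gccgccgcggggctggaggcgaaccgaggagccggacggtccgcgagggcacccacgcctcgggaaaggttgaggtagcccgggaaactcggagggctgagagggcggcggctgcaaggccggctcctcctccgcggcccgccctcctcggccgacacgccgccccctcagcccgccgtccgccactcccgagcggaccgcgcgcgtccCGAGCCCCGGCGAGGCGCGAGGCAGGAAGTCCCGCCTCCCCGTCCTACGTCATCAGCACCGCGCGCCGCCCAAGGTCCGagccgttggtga
The Map2k3os window is chr11:60931818-60932117 on the minus strand, with starts 166 bases apart.
Map2k3os: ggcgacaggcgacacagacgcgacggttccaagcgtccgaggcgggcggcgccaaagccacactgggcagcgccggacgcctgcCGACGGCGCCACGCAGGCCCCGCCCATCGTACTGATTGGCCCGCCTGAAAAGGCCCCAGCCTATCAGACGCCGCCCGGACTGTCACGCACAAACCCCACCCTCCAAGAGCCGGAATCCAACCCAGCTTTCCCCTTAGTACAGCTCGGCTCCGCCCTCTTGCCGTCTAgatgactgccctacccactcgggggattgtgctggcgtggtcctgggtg
The Ptgs2os window is chr1:150099825-150100124 on the minus strand, with starts 68 bases apart.
Ptgs2os: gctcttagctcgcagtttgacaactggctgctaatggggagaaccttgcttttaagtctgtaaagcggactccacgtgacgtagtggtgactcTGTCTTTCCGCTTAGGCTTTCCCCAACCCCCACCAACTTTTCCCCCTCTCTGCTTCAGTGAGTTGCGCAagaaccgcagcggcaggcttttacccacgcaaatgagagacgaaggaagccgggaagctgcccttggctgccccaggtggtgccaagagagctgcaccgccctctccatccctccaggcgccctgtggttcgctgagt
Oip5os1 starts 24172 bases from the start of Oip5. In its own window, chr2:119594046-119594345 on the plus strand, capitals mark 2 matches to CCAAT.
Oip5os1: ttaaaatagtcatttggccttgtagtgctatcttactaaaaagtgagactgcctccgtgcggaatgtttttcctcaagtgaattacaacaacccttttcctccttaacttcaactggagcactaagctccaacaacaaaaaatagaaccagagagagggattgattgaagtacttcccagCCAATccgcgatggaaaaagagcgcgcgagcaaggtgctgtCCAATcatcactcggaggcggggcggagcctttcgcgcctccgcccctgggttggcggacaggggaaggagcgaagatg
Across the 36 genes with a window, GGGCGG (the GC box, searched on both strands like the others) was found for 66.7%, against 66.0% of partners and 38.2% of all 27025 genes with a window. CCGGAAG, a motif of ETS factors, was found for 19.4% of them, 25.5% of partners and 9.93% of all genes. CCAAT was found for 41.7%, close to the 41.1% over all genes, and TATAAA for 11.1% against 15.7%. A gene with several windows counts if any of them holds the motif, and the 36 genes have 50 windows. Per window, GGGCGG was found in 52% of them against 35.7% of all windows, and CCGGAAG in 14% against 8.86%. CCAAT was found in 36% against 37.4%, and TATAAA in 8% against 13.6%. Windows of a gene and its partner can cover the same bases, and matches to different motifs may share bases. The genes' windows had a median GC content of 55.7%, against 52.7% over all windows, so the GC-rich motifs and the base composition moved together. These matches describe letters, not bound sites.

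By position in GENCODE M21 (GRCm38), 31 of the 61 genes were head to head with their partner, with starts on opposite strands within 1000 bases (38 to 858 bases apart, median 332). This class takes in genes whose body overlaps that of the partner at the starts, Pigbos1 and Junos among them. Of the genes with starts further apart, 10 met their partner tail to tail and 8 lay inside it. A further 5 overlapped it at the starts, 2 lay around it and 5 lay apart from it. Oip5os1 is among those apart: it occupies chr2:119594297-119607502 on the plus strand and its end faces that of Oip5 across 2009 bases. More than 1 exon was annotated for 59 of the 61. Exonic bases were also compared with exons on the opposite strand. In 24 genes none lay opposite an exon of the partner, although some of these genes, such as Egfros, lie within its introns, and in 5 genes over 50% did. The strand setting of the counting is not given in the sources used here, so reads of the partner cannot be told apart from the gene's own on the shared exonic bases of the other 37 genes, or inside introns of the partner.

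The annotation did not bear out "noncoding" for every gene. It gave 42 as antisense RNAs, 5 as processed transcripts, 5 as lincRNAs, 1 as a bidirectional promoter RNA, 1 as a pseudogene and 7 as protein-coding genes. Slc7a6os, Wdr83os, Cebpzos, Ccpg1os, Brd3os and Cdiptos are among the protein-coding ones, whose values are also given separately.

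The gene counts summed to 39261010 and 38382081. Smad5, whose gene count also takes in the linear mRNA and does not check the knockdown of the circle, had 3109 and 3413 counts. The basal keratinocyte markers Krt5, Krt14, Itga6, Itgb4, Col17a1 and Trp63 had 9449 to 226645 counts, and none was called higher or lower. Of the stem cell markers, Krt15 was called lower, at 253 and 79 counts (3.27-fold), and Sox9 (8829 and 5301 counts), Tcf3 (4472 and 3704) and Nfatc1 (2300 and 2077) were not called, with a median log2 ratio of -0.53 over the list. Lhx2 had 4 and 5, Cd34 was at 0, and Lgr5 was not analysed here. Markers of other cell types had lower summed levels in the hairpin library. They were 4.19 and 1.68 CPM for 5 fibroblast markers (Col1a1 and Lum at 0), 3.10 and 0.790 CPM for 4 endothelial ones (Cdh5 at 0), 22.2 and 11.6 CPM for 2 of 5 melanocyte markers in the table (Pmel and Mitf), and 6.69 and 5.74 CPM for 2 of 4 immune ones (Cd68 and Cd3e). Of these, Pdgfra, Pecam1 and Kdr were called lower. The fibroblast sums came almost wholly from Pdgfra (161 and 62 counts) and the melanocyte sums from Mitf (829 and 426). Not every marker was lower: Pmel had 24 and 30 counts, and Col1a2 and Col3a1 each had 0 and 2. The part of these cells in the results below was not tested.

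Together the 61 genes had 4707 and 14489 counts, or 122.5 and 369.4 per 1e6 counts (CPM, after TMM scaling, which aligns the bulk of genes between libraries). That is a 3.01-fold higher level with the hairpin, with an exact 95% counting interval of 2.92 to 3.12. The interval covers counting error alone and leaves out differences between cultures and libraries, which 1 library per line cannot measure. The reads also carried no molecular identifiers to tell molecules from copies. Oip5os1 and Brip1os carried most of the rise. Without both, the other 59 genes went from 3763 to 5418 counts, 1.41-fold higher (1.35 to 1.47). Without the protein-coding genes as well, the remaining 52 went from 1425 to 2998 counts, 2.06-fold higher (1.93 to 2.20). The 7 protein-coding genes had 2338 and 2420 counts, 1.01-fold (0.957 to 1.07). All other long noncoding genes of the table together were 3.17-fold higher (3.15 to 3.19), and 234509 of their 488984 counts in the hairpin library came from 1 gene, the nuclear RNA Malat1. The 60 partners went the other way, from 165014 to 140871 counts, which is 0.836 times the empty vector level (0.830 to 0.842). Ptgs2 and Hk1 carried most of that difference, and without both the other 58 partners were at 0.928 times (0.921 to 0.935). All 15199 protein-coding genes, the class of the partners, were together at 0.948 times (0.948 to 0.949). The partners' lower sum was thus close to that of their class, and the difference was not tested.

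A gene was called higher or lower where it reached 20 counts in either library, differed at least 2-fold and had a counting interval that excluded 1. Of the 61, 32 had enough counts, and 19 of them were called higher and 1 lower, which is 59.4% and 3.12%. Among all 13596 genes with enough counts, 8.43% were called higher and 6.24% lower. The percentages higher and lower were 4.61% and 6.38% for protein-coding genes, 30.1% and 3.60% for TEC models (unspliced models awaiting experimental testing) and 44.8% and 6.97% for the 603 other long noncoding genes. The rise was thus shared with noncoding genes at large, and the difference between 59.4% and 44.8% was not tested. A gene near 0 in one library can enter only by being high in the other. With a mean of 20 counts over both libraries required instead, 15 of 27 were called higher (55.6%) and 0 lower, against 41.9% and 4.91% of 489 other long noncoding genes and 6.88% and 5.48% of all genes.

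**Figure D1:**
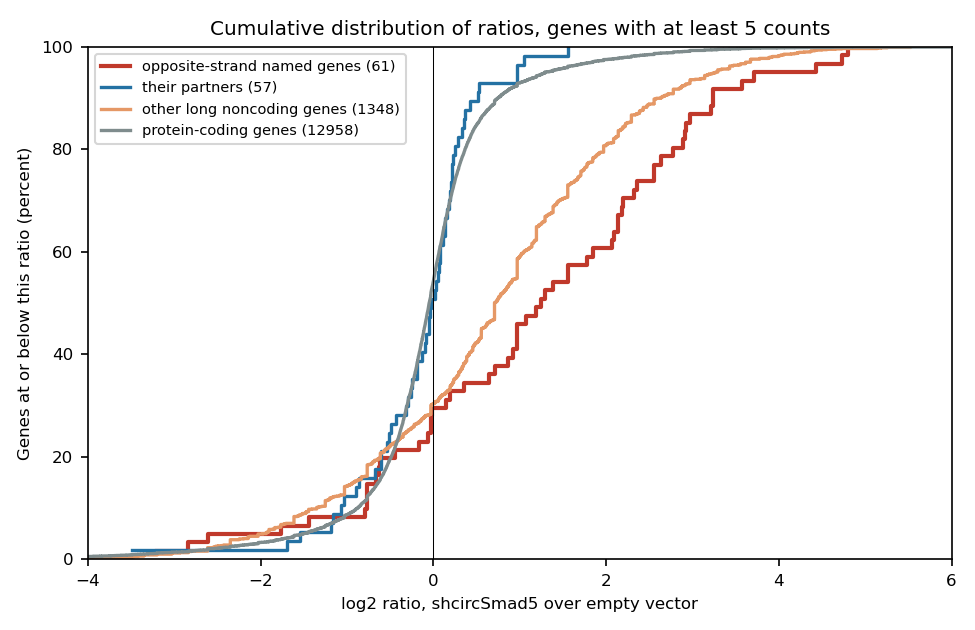
Cumulative percent of genes (vertical axis) at or below each log2 ratio of shcircSmad5 over empty vector (horizontal axis), for genes that reached 5 counts in either library, drawn for the opposite-strand named genes, their partners, other long noncoding genes and protein-coding genes. The opposite-strand genes spread widely around a median of 1.25, while partners (-0.03) and protein-coding genes (-0.05) are narrow around 0.

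The median log2 ratio over the 61 genes was 1.25, with quartiles at -0.03 and 2.56 and a range from -3.20 to 4.80, where a count of 0 is set to a floor of 3 counts. It was above 0 for 43 genes. The 54 genes not annotated as protein-coding had a median of 1.47 and the 7 protein-coding ones -0.02. Other long noncoding genes had a median of 0.71, TEC models 0.58, protein-coding genes -0.05 and all 16824 genes with at least 5 counts 0.00. The 57 partners with at least 5 counts had a median of -0.03, which turned to 0.03 with total counts as the scaling. The minimum of 5 counts bears on these values, since 17 of the 61 genes reached it only in the hairpin library and 6 only in that of the empty vector. Of the 38 that reached it in both, 26 had a ratio above 0, with a median of 0.97.

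Oip5os1 had 588 and 5645 counts. Its level rose from 15.3 to 143.9 CPM, 9.40-fold (8.64 to 10.3), a log2 ratio of 3.23. Its partner Oip5, which codes for a protein that loads centromeric histone with the Mis18 complex, had 543 and 600 counts, a log2 ratio of 0.11 (-0.06 to 0.28). The log2 difference between both genes was 3.12 (2.91 to 3.33), and this value does not depend on how the libraries are scaled. Per length, Oip5os1 stood below Oip5 in the empty vector library, at 1.80 against 7.78 FPKM (fragments scaled to gene length and library total). It stood above Oip5 in the hairpin library, at 17.7 against 8.79 FPKM. Of 10 genes listed for miRNA decay and the miR-7 circuit of Oip5os1, 0 were called, with a median log2 ratio of 0.03. Zswim8 had 4553 and 4680 counts (0.01), Cul3, the ligase scaffold, 8686 and 8650 (-0.04), and Ago2, which holds the microRNA, 23988 and 27320 (0.16). Hnrnpk had 27255 and 30315 counts (0.12). Tent2, a poly(A) polymerase that extends microRNAs, came closest to a call, with 2279 and 1177 counts, 1.98-fold lower. Elob had a log2 ratio of -0.52 and Ago1 one of -0.46.

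Brip1os was the closest match to Oip5os1 in its ratio and its counts. It spans chr11:86201370-86304443 on the plus strand and starts 177 bases from Brip1, a DNA helicase of the Fanconi anaemia pathway. No exonic base of Brip1os lies opposite an exon of Brip1, but 20.2% lie on exons of other annotated genes. The counts of Brip1os went from 356 to 3426, or 9.27 to 87.3 CPM, 9.43-fold higher (8.45 to 10.5). Brip1 itself had 1218 and 1414 counts, a log2 ratio of 0.19 (0.07 to 0.30), and the difference between both genes was 3.05 (2.86 to 3.25). In FPKM, Brip1os passed its partner: 1.40 against 4.16 in the empty vector library, and 13.7 against 4.94 in the hairpin library. Transcripts that leave the same 178-base stretch in opposite directions thus differed in their ratio.

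**Figure D2:**
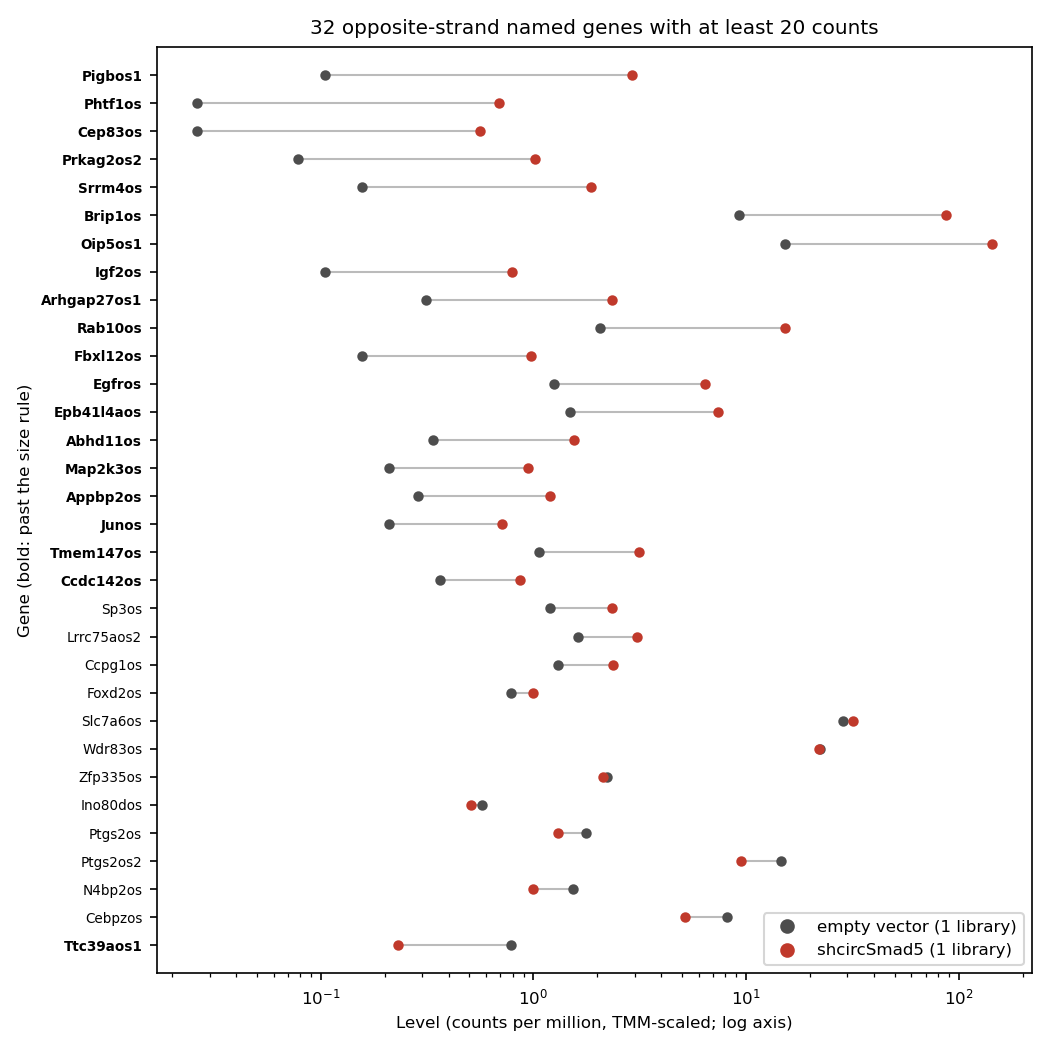
Level of the 32 opposite-strand named genes with at least 20 counts in either library, in CPM on a log axis, ordered by their ratio, with a line joining the 1 point per library and bold names for genes past the size rule. Oip5os1 and Brip1os move from 15.3 and 9.27 CPM to 143.9 and 87.3 CPM, while the protein-coding Slc7a6os and Wdr83os lie at nearly the same level in both libraries.

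Of the 19 genes called higher, 4 more had at least 20 counts already in the empty vector library. Rab10os, tail to tail with the vesicle transport GTPase Rab10, had 79 and 596 counts, 7.39-fold higher (5.84 to 9.47). Rab10 had 10916 and 11717 counts, a log2 ratio of 0.07, and outweighed Rab10os per length in both libraries, at 79.1 and 86.9 FPKM against 0.328 and 2.53. Epb41l4aos, a short spliced RNA of 430 exonic bases downstream of the cytoskeletal gene Epb41l4a, had 57 and 291 counts, 5.00-fold higher (3.75 to 6.76). Its FPKM of 17.6 in the hairpin library was close to that of Oip5os1, while Epb41l4a had 795 and 781 counts, a log2 ratio of -0.06. Egfros lies inside the gene of the epidermal growth factor receptor Egfr, at chr11:16815431-16830702 on the minus strand, and had 48 and 251 counts, 5.12-fold higher (3.75 to 7.13). Egfr had 4616 and 4617 counts, a log2 ratio of -0.03 (-0.09 to 0.03). Tmem147os, which starts 39 bases from the endoplasmic reticulum protein gene Tmem147, had 41 and 123 counts, 2.94-fold higher (2.05 to 4.29), beside 1544 and 1815 for its partner (log2 ratio 0.20). In none of these pairs did the partner differ by 2-fold.

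The other 13 genes called higher had under 20 counts in the empty vector library, and 5 of them under 5, so their ratios are less exact. The highest ratio was that of Pigbos1, with 4 and 114 counts, 27.9-fold (10.6 to 104.2). Pigbos1 encodes a small mitochondrial protein, although the annotation lists it as a processed transcript, and its partner Pigb, an enzyme of glycolipid anchor synthesis, had 909 and 870 counts. Phtf1os had 1 and 27 counts (4.36 to 1083-fold) beside 1492 and 1786 for Phtf1. Exons of other genes, Phtf1 included, share 63% of the exonic bases of Phtf1os. Cep83os had 1 and 22 counts (3.48 to 889.3-fold) beside 1387 and 1187 for Cep83, a centriole protein with which it shares the 78 bases between starts. These 3 share a head to head layout and a partner within 2-fold. The width of the last 2 intervals comes from the single count in the empty vector library.

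Moderate rises from low counts were seen in a further 6 genes whose partner was within 2-fold or not measured. Arhgap27os1 had 12 and 92 counts (7.51-fold, 4.10 to 15.1), head to head with the GTPase-activating gene Arhgap27 at 2369 and 3471 counts. Exons of Arhgap27 lie opposite 45.9% of the exonic bases of Arhgap27os1, and exons of other genes, Arhgap27 included, share 82.1%. Fbxl12os had 6 and 38 counts (6.20-fold, 2.60 to 18.0), tail to tail with Fbxl12, a ubiquitin ligase subunit at 357 and 432 counts. Abhd11os had 13 and 61 counts (4.60-fold, 2.50 to 9.12), and the mitochondrial hydrolase gene Abhd11 2534 and 3001. Each stood several-fold above its level in the empty vector library, and none of the 3 partners was called. Map2k3os had 8 and 37 counts (4.53-fold, 2.08 to 11.3), and Map2k3, a kinase that activates p38, had 4460 and 4776. Appbp2os had 11 and 47 counts (4.19-fold, 2.14 to 8.95), and Appbp2 5269 and 5662. Ccdc142os had 14 and 34 counts (2.38-fold, 1.24 to 4.80), and Ccdc142 only 0 and 2. Their partners thus ranged from almost silent to 5662 counts. In all, 14 of the 19 genes called higher had a partner within 2-fold.

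For 4 genes called higher, the partner changed by at least 2-fold, with a count of 0 set to the floor for Srrm4 and Igf2. Prkag2os2 lies inside Prkag2, a regulatory subunit of the energy sensor AMPK, and had 3 and 40 counts (13.1-fold, 4.16 to 66.0), while Prkag2 fell from 1272 to 582 counts, a log2 ratio of -1.16. Srrm4os runs tail to tail with Srrm4, a splicing factor of neural exons, and had 6 and 73 counts (11.9-fold, 5.22 to 33.5). Srrm4 fell from 33 counts to 0, 11.2-fold lower against the floor, a log2 ratio of -3.49 (interval up to -3.11). Junos starts inside the gene of Jun, a subunit of the transcription factor AP-1, 688 bases from the start site of Jun. Junos had 8 and 28 counts (3.43-fold, 1.52 to 8.70), while Jun fell from 4548 to 2219 counts, a log2 ratio of -1.07. In these 3 pairs the gene and its partner moved in opposite directions. Igf2os had 4 and 31 counts (7.59-fold, 2.68 to 29.6). Igf2, an imprinted growth factor gene, had 0 and 9 counts, under the count minimum for a call. Igf2 was 2.94-fold higher against the floor, a log2 ratio of 1.56 (interval from 0.95 upward).

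**Figure D3:**
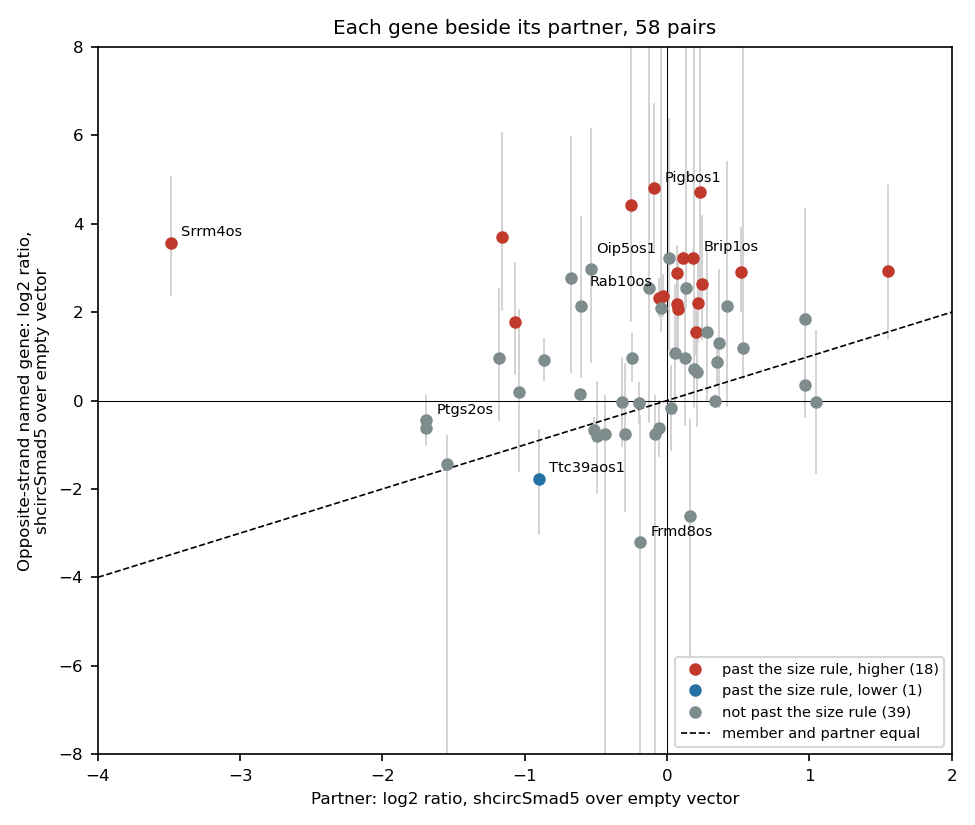
Log2 ratio of each opposite-strand named gene (vertical axis, with its 95% counting interval, clipped at -8 and 8) against that of its partner (horizontal axis), for 58 pairs with at least 5 counts for both genes. Most points lie above the dashed line of equal ratios, and the horizontal spread is much narrower than the vertical one. Ratios that involve a count of 0 are drawn at the floor of 3 counts.

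Both genes were measured in 58 pairs, and the opposite-strand gene had the higher log2 ratio in 45 of them, with a median difference of 1.26. The choice of genes bears on both values. Of the 61 genes, 17 reached the minimum of 5 counts only in the hairpin library, which favours a high ratio, and 6 only in that of the empty vector. A counting interval of the difference could be had for 49 pairs. It lay above 0 in 26, below 0 in 3, Wdr83os and Frmd8os among them, and held 0 in 20. Among pairs with enough counts for both genes, the differences of largest size were those of Srrm4os, 7.06 with Srrm4 at the floor, Pigbos1 at 4.90 (3.49 to 6.80), Prkag2os2 at 4.86 (3.20 to 7.21), Cep83os at 4.68 and Phtf1os at 4.50. Of these, Pigbos1, Prkag2os2, Cep83os and Phtf1os reached 5 counts only in the hairpin library, so their choice favours a large difference. The lowest differences were those of Ttc39aos1 at -0.86 (-2.22 to 0.37), N4bp2os at -0.57, Wdr83os at -0.35 (-0.65 to -0.05), Ino80dos at -0.19 and Cebpzos at -0.15. The ranks of the ratios of gene and partner were weakly related, with Spearman's rank correlation of 0.21 over 58 pairs, 0.25 over 29 pairs with 20 counts for both and 0.31 over the 31 head to head pairs. These points share both libraries, so the values are descriptions. Per length the opposite-strand gene was below its partner in 50 of 58 pairs in the empty vector library and in 48 in the hairpin library. The number of genes at 1 FPKM or more went from 10 to 17 of the 61, and at 10 FPKM or more from 1 to 4.

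Partners were called lower in 7 of the 54 with enough counts (13.0%) and higher in 1 (1.85%), against 6.24% and 8.43% of all genes. For protein-coding genes, the class of the partners, these shares were 6.38% and 4.61%, and the differences were not tested. Besides Prkag2, Srrm4 and Jun, the partners that fell were Ptgs2, Hk1, Irx3 and Dnmt3b. Ptgs2, the inducible cyclooxygenase, had the most counts of them, 16280 and 5148, a log2 ratio of -1.69. Its neighbours did not follow to the same extent: Ptgs2os, which starts 68 bases away, had 68 and 51 counts (0.735-fold, 0.501 to 1.07), and Ptgs2os2, the lincRNA also known as lincRNA-Cox2 that lies 50815 bases away, had 563 and 373 (0.649-fold, 0.568 to 0.741). The differences from Ptgs2 were 1.25 (0.69 to 1.79) and 1.07 (0.87 to 1.26), which share the Ptgs2 counts. Hk1, the first enzyme of glycolysis, fell from 10374 to 4665 counts while Hk1os inside it had 7 and 14. Irx3, a homeobox factor, fell from 396 to 197 while Irx3os had 6 and 7. Dnmt3b, a DNA methyltransferase, fell from 620 to 217, and Dnmt3bos had 8 and 0, 2.72-fold lower against the floor (interval from 1.74-fold). Dnmt3bos is thus the one of these opposite-strand genes whose own counts fell to 0 as the partner fell. The partner called higher was Man2c1, a cytosolic mannosidase, with 662 and 1395 counts (log2 ratio 1.05), beside 8 and 8 for Man2c1os.

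Ttc39aos1 was the gene called lower, with 30 and 9 counts, 3.40-fold (1.58 to 8.15). Its partner Ttc39a had 108 and 59 counts, a log2 ratio of -0.90, so the pair pointed the same way, and the interval of their difference held 0. Frmd8os, with 9 and 1 counts, was also below its partner but under the minimum of 20 counts. Enough counts without a call were found in 12 genes, 8 of them not protein-coding. Lrrc75aos2 had 62 and 120 counts (1.90-fold, 1.38 to 2.62) and Sp3os 46 and 92 (1.96-fold, 1.36 to 2.86), both just short of 2-fold. Zfp335os had 85 and 83, Ino80dos 22 and 20, Foxd2os 30 and 39 and N4bp2os 59 and 39. Not every well-counted noncoding gene of the set was thus higher with the hairpin.

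The protein-coding genes of the set included the 2 of most counts in the empty vector library. Slc7a6os, a factor for the nuclear import of RNA polymerase, had 1103 and 1246 counts, a log2 ratio of 0.15 (0.03 to 0.26), above its partner Slc7a6, an amino acid transporter at -0.61. Wdr83os, a small chaperone of membrane protein insertion, had 853 and 861 counts (-0.02, -0.15 to 0.12), and Wdr83 had 213 and 274. Cebpzos had 313 and 202 counts (-0.66, -0.92 to -0.40) beside -0.52 for Cebpz, and Ccpg1os 50 and 93 (0.87, 0.35 to 1.39) beside 0.35 for Ccpg1. None of these 4 was called, whereas 19 of the 28 genes not annotated as protein-coding and with enough counts were called higher (67.9%) and 1 lower (3.57%). Brd3os had 2 and 16 counts, so not every protein-coding gene was flat.

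**Figure D4:**
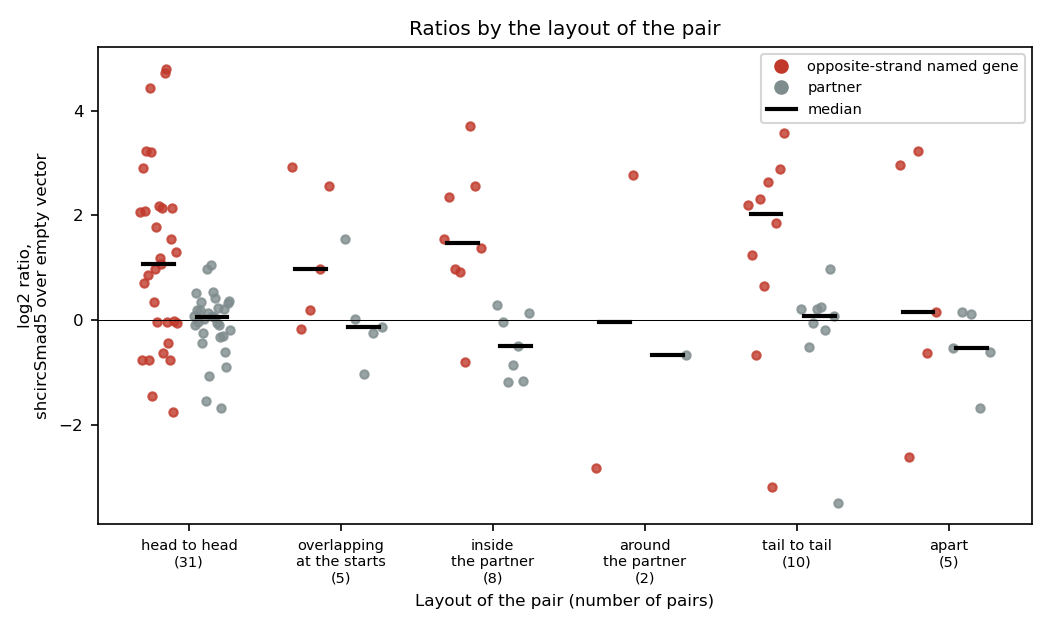
Log2 ratios, shcircSmad5 over empty vector, of the opposite-strand named genes (red) and their measured partners (grey), grouped by the layout of the pair, with a bar at each median. The medians of the genes lie above those of their partners in the head to head, inside and tail to tail groups, at 1.07, 1.47 and 2.02.

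Ratios above 0 were not limited to pairs that share a start region. Head to head genes had a median log2 ratio of 1.07, with 20 of 31 above 0, and 9 were called higher and 1 lower of 16 with enough counts. Tail to tail genes had a median of 2.02, with 6 of 7 called higher, and genes inside their partner one of 1.47, with 2 of 3. The medians of their partners were 0.06, 0.07 and -0.49. Genes with no exonic base opposite an exon of the partner had a median of 1.29 (8 of 14 called higher), and those with such bases one of 1.25 (11 of 18). The 18 genes with no exonic base shared with an exon of any annotated gene, which may still lie in introns, had a median of 0.97, and 4 of 10 were called higher, Oip5os1 among them. Chromosome 11 held 9 of the genes, all with a ratio above 0 and a median of 2.36, and 5 of 6 with enough counts were called higher, while the median over all genes of that chromosome was 0.10. The ratio was weakly related to exonic length (Spearman's rank correlation 0.36) and to mean CPM (0.20) over the 61 genes, as a description.

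The remaining low-count genes were measured with little precision. Of 29 genes under 20 counts, 19 had a log2 ratio above 0 and 10 below, but 12 of the 19 had reached the minimum of 5 only in the hairpin library. Among those that reached it in both, 7 were above 0 and 4 below. The interval lay above 0 in 9, below 0 in 3 and held 0 in 17. Set against the floor, Rab11fip4os1 (0 and 18 counts) was 5.88-fold higher (interval from 4.31-fold) and Bloc1s6os (0 and 13) 4.24-fold higher (interval from 2.99-fold). The 51 named genes below the minimum of 5 had 36 and 69 counts in all, 1.88-fold higher (1.24 to 2.89).

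Most of the other noncoding genes listed by name and with enough counts were higher too. Of 32 entries found in the table, with Snhg4 present under 2 gene IDs, 27 had enough counts, and 17 were called higher and 1, Snhg10 with 30 and 7 counts, lower, with a median log2 ratio of 1.70. Among them is Epb41l4aos, already described. Over the 603 other long noncoding genes, 44.8% were called higher and 6.97% lower. Malat1, a nuclear speckle RNA, had 15187 and 234509 counts (15.1-fold), Neat1, the paraspeckle scaffold, 3592 and 39017 (10.6-fold), and Xist, the RNA that coats the inactive X chromosome, 1925 and 40698 (20.7-fold). Tug1 had 1595 and 9549 counts (5.86-fold), Snhg17 1079 and 2888 (2.62-fold) and Gas5 154 and 1749 (11.1-fold). Not all rose: Kcnq1ot1 had 3484 and 3921 counts (1.10-fold), Airn 98 and 64 (0.640-fold) and Snhg8 213 and 170 (0.782-fold). The ratios of Oip5os1 and Brip1os thus lay within the range of these RNAs. Components of the RNA exosome and of nuclear RNA turnover, which limit many antisense and promoter RNAs, were listed as well: of 20 in the table, 0 were called, with a median log2 ratio of -0.03 that turned to 0.03 with total counts as the scaling. Xrn2, a nuclear exonuclease, had 14459 and 11608 counts (-0.35), Srrt 7472 and 6993 (-0.13), and Zc3h18, which links capped RNA to the exosome, 5832 and 5784 (-0.04). The lowest ratios of the list were those of Exosc3, a cap subunit of the exosome, at 567 and 306 counts (1.89-fold lower), and of its nuclear helicase Mtrex, at 4429 and 2653 (1.70-fold lower). The highest was that of Exosc5, at 813 and 1268 counts (1.53-fold higher).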

How the data were processed

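Total RNA of both lines (3 µg each) was depleted of ribosomal RNA and made into strand-keeping libraries, per the labels' protocols. The submitters' processing notes name HISAT2 and HTSeq 0.13.5, and beside GRCm38 also GRCh38, with no role for either build. Neither the annotation nor the strand setting of the counting is given in the sources used here. Per the file headers, the authors deposited a raw read count and an FPKM value per gene and library. The deposited FPKM was checked against the counts: the length it implies equals the exonic length in GENCODE M21 for all 61 genes described, which is the ground for using that GRCm38 annotation for positions, layouts and biotypes. Long noncoding genes are those of biotype antisense, sense overlapping, lincRNA, bidirectional promoter or processed transcript. Unmatched value columns numbered 0. The values of 1 gene of the set are not reported here.

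Counts were scaled by TMM (edgeR 4.0.16, R 4.3.3). With 1 library per group no test, p-value or standard error was made. Ratios carry exact Clopper-Pearson 95% counting intervals (SciPy 1.17.1), and differences between gene and partner exact conditional odds ratio intervals. Counts of 0 were replaced by a floor, 3 counts per library. One CPM stands for 38.4 counts (empty vector) and 39.2 counts (shcircSmad5). Named are genes past the size rule, the 12 of most counts, those whose partner passed it, the 5 largest and 5 smallest differences, and up to 6 members of each list past the size rule, or the 3 of most counts. Frmd8os, Sp3os, Zfp335os, Foxd2os, Ccpg1os, Brd3os, Bloc1s6os, Rab11fip4os1, Cul3, Zswim8, Tent2, Elob, Ago1, Exosc3, Exosc5, Mtrex, the removal of Ptgs2 and Hk1, the genes at the edge of the minimum and the splits by biotype and chromosome were picked with their values already seen. So were Kcnq1ot1, Airn and Snhg8. The members and lists were chosen with earlier results of these data known. Alternatives were 4 other scalings (one with DESeq2 1.42.0), centring by chromosome, other count minimums and fold limits, FPKM, a prior count and the subsets without overlapping bases or protein-coding genes.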

Additional observations from a re-analysis of the deposited data

How the results depend on the processing

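No paired analysis was possible because each group had 1 library. Over 14 other settings, 84 of 111 values of the main comparisons were labelled the same, 22 moved and 5 reversed. A count was labelled the same within 1.5-fold of the main one. Any other value was so labelled where it kept its sign and lay inside an interval of the main value, so sizes could differ. The genes' median log2 ratio of 1.25, for example, ranged from 0.87 to 1.94 under that label. Of 427 values of single genes, 417 held, that is, lay inside the counting interval of the main value, 10 moved and 0 reversed. A change of sign was labelled as reversed only for the 19 genes called higher and the 1 called lower. The 0 therefore does not cover genes without a call. All 19 genes called higher were called again under total counts, DESeq2 size factors, upper quartile, reduced totals, centring by chromosome and a prior count of 2. A limit of 3-fold lost Ccdc142os and Tmem147os, and log2(FPKM + 0.1) lost Cep83os and Junos. Restricting the genes tested lowered counts by construction. With at least 100 counts, 7 genes were called higher and 0 lower, 0 partners higher and 1 lower, and 10 pairs had the opposite-strand gene above its partner. With no exonic base opposite an exon of the partner these were 8 genes higher, 0 and 2 partners, and 20 pairs, and with none opposite or shared with an exon of any other gene 4, 0 and 2, and 15. A minimum of 20 counts for the genes, with one of 5 in the size rule, left 25 such pairs and 4 partners lower, and the latter alone added 9 genes higher among the 61. A limit of 1.5-fold gave 4 genes and 12 partners lower, 2 exosome genes lower and 1 higher, and 1 gene of the miR-7 list lower, and one of 3-fold 0 partners higher and 2 lower. FPKM gave 4 partners lower, and the cause was not tested. Centring by chromosome gave 0 partners higher, and 3.40 for Oip5os1 because the chromosome 2 median of -0.16 is then subtracted. The partners' median of -0.03 reversed to 0.0330 (total counts), 0.0351 (upper quartile), 0.0472 (reduced totals), 0.0327 (FPKM) and 0.0623 (no base opposite a partner exon). The exosome list's median reversed to 0.0289, 0.0310, 0.0431 and 0.0288 under the first 4 of these and 0.0195 with centring, and that of the miR-7 list to -0.0542 with centring. These medians lie too near 0 to give a direction. Depth limits the genes with under 20 counts in the empty vector library, whose intervals span several-fold.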
